A study of Mus musculus with 8 samples.

Results

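The HOX transcription factors of 2 chromosomal clusters and the cofactors that bind DNA with them were followed in normal and leukaemic blood-forming cells of mice. Hoxa3, Hoxa5, Hoxa7, Hoxa9, Hoxa10 and Hoxb4 encode homeodomain proteins, and Meis1 and Pbx3 encode cofactors of the TALE class. The 8 genes were chosen by symbol, with earlier results of these data known, through probe sets annotated to that symbol alone. They were reported by 11 of 20380 such probe sets and made up 8 of 12393 genes tested. Hoxa3, Hoxa9 and Hoxb4 had 2 probe sets each and the other 5 genes had 1.

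RNA was measured on Affymetrix expression arrays in 3 groups of sorted cells from mice of strain C57/BL6, given as 12 weeks old. The 3 WT HSC arrays held LSK cells (lineage-negative, Sca1-positive and Kit-positive), a stem and progenitor fraction of normal bone marrow. The 3 WT CML LIC arrays held leukaemia-initiating cells of a retroviral model of chronic myeloid leukaemia, sorted by GFP and the same surface markers 14 days after bone marrow transplantation, and the 2 Ezh2 KO CML LIC arrays held the same fraction from leukaemia lacking Ezh2. All samples went through the sorter 2 times. The oncogene in the retrovirus, the Ezh2 allele, any Cre line and any pooling of animals are not stated in the labels. WT and Ezh2 KO LICs share the transplantation and the retrovirus. For LSK cells neither is given, so transplantation, infection, leukaemia and, since no batch is given, hybridisation batch cannot be told apart in comparisons with them. The labels call the repeats biological without naming the animals, so the p-values measure the spread between these arrays.

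HOX proteins bind short, similar DNA sites. PBX proteins bind DNA next to them and raise their selectivity, and MEIS proteins join these complexes and help keep PBX proteins in the nucleus. In bone marrow, Hoxa9, Hoxa10, Hoxb4 and Meis1 are known for high expression in stem and early progenitor cells and for falling as cells mature, and forced Hoxa9 with Meis1 causes acute leukaemia in mice. Silent HOX clusters are a classic site of histone H3 lysine 27 methylation by Polycomb repressive complex 2, whose main catalytic subunit is Ezh2, while the MLL (Kmt2a) and DOT1L complexes keep active HOX genes transcribed.

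Values are log2 intensities. The arrays had medians between 6.54 and 6.58 in LSK cells and between 6.42 and 6.49 in LICs, so every LIC array had a lower median than every LSK array. A level of 4.01, the highest mean among 27 bacterial control probe sets, is called background. Ezh2 stood at 8.94 and 9.55 on the Ezh2 KO arrays, between 11.26 and 11.44 on the WT LIC arrays and between 10.77 and 11.07 on the LSK arrays. The difference between Ezh2 KO and WT LICs was -2.10 (SE 0.21, adjusted p = 0.00985), and 0.055 was the adjusted p on the LIC arrays alone. Kit, which the gate used, lay between 10.90 and 11.05 in LSK cells, between 9.69 and 9.81 in WT LICs and at 9.99 and 10.35 in Ezh2 KO LICs, so every LIC array lay below every LSK array. Sca1 was not analysed here. Of 5 measured T cell markers, Cd3g was at or under background on all arrays and none of the others exceeded 4.48. The WT LIC arrays stood apart from each other. Of 4 measured erythroid markers, 3 had a mean above background in each group, and Hba-a1 was at background on all arrays. Their summed level was 11.6 and 10.8 on WT LIC replicates 1 and 2 and 7.18 on replicate 3. It was 8.9 to 9.1 in LSK cells and 9.06 and 8.55 in Ezh2 KO LICs. Replicates 1 and 2 thus lay above all arrays of the other groups and replicate 3 below them. The part of this in the comparisons with WT LICs was not tested. The brightness of different probe sets was not compared, since it depends on the probes.

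Between normal LSK cells and WT LICs, Hoxa3, Hoxa10 and Hoxb4 fell by amounts of 3.76-fold to 4.42-fold. Hoxa9 and Meis1 were lower on each WT LIC array than on any LSK array, by smaller amounts that did not pass the test over all genes. Hoxa5, Hoxa7 and Pbx3 showed overlapping levels. Of the 8 genes, 3 were called lower (Benjamini-Hochberg adjusted p under 0.05) and none higher, where 2.15% of all genes were called lower. For 5 of the 8 all WT LIC arrays lay below all LSK arrays, as they did for 13.2% of all genes. Because the members were chosen with earlier results known, such shares, here and below, do not test them as a set. All genes are also an unlike reference, since both means were at background for 3385 of 12393 genes and for none of the members.

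Hoxa10, an AbdB-type HOX factor of stem cells and myeloid progenitors, was at 9.65, 9.28 and 9.34 in LSK cells, at 6.56, 7.33 and 7.94 in WT LICs and at 10.15 and 8.87 in Ezh2 KO LICs. The WT LIC arrays lay below all others, and the Ezh2 KO arrays lay on both sides of the LSK arrays. It fell by 2.15 on the log2 scale between LSK cells and WT LICs (SE 0.42, adjusted p = 0.0409), a 4.42-fold difference. The call was lost when any LSK array, WT LIC replicate 1 or WT LIC replicate 2 was left out (adjusted p from 0.0943 to 0.115).

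Hoxa3, an anterior gene of the same cluster, was at 8.65, 7.90 and 8.23 in LSK cells, at 6.12, 6.79 and 6.14 in WT LICs and at 7.41 and 6.96 in Ezh2 KO LICs. The 3 groups did not overlap, with Ezh2 KO LICs in the middle. It fell by 1.91 between LSK cells and WT LICs (SE 0.27, adjusted p = 0.0151), a 3.76-fold difference. Its dimmer probe set gave -1.15 (SE 0.63), with 1 WT LIC array at 3.98, and averaging both probe sets gave -1.53 (adjusted p = 0.0871). Without LSK replicate 3 or WT LIC replicate 1 the adjusted p was 0.0507 and 0.0576. The suffix (_s_at) of the brighter probe set is the array maker's mark for probes that can also match other transcripts.

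Hoxb4, whose forced expression expands blood stem cells, was at 8.19, 8.61 and 7.15 in LSK cells, at 5.65, 6.36 and 5.75 in WT LICs and at 6.33 and 5.64 in Ezh2 KO LICs. Both LIC groups lay below all LSK arrays and overlapped with each other. It fell by 2.06 between LSK cells and WT LICs (SE 0.40, adjusted p = 0.0394), a 4.17-fold difference. The call was lost without any 1 array other than LSK replicate 3 (adjusted p from 0.0579 to 0.126). A second probe set of Hoxb4 was at background on most arrays, at 2.57 to 4.18, and adds no level.

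Hoxa9, often highly expressed in acute myeloid leukaemia, was at 10.76, 10.74 and 10.88 in LSK cells, at 9.55, 9.47 and 10.37 in WT LICs and at 9.77 and 10.20 in Ezh2 KO LICs. The LSK arrays lay close together and above all LIC arrays. Among the WT LIC arrays, replicate 3 was the highest. The difference between WT LICs and LSK cells was -0.997 (SE 0.26, adjusted p = 0.0828), and without WT LIC replicate 3 it was -1.28 (SE 0.18, adjusted p = 0.014). Hoxa9 was called in 2 of 15 alternatives, this one and the trended robust prior (adjusted p = 0.0488). Over the 15 its difference ranged from -1.28 to -0.79. The dimmer probe set of Hoxa9 gave -0.59 (SE 0.27).

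Meis1, the TALE partner of HOXA9, was at 8.53, 8.24 and 7.99 in LSK cells, at 6.89, 7.88 and 6.54 in WT LICs and at 7.34 and 7.76 in Ezh2 KO LICs. Every LIC array was below every LSK array, though WT LIC replicate 2 came close to the lowest LSK array. The difference between WT LICs and LSK cells was -1.15 (SE 0.35, adjusted p = 0.12), and without WT LIC replicate 2 it was -1.54 (SE 0.24, adjusted p = 0.0427). That was the only call among 15 alternatives, over which the difference ranged from -1.54 to -0.87.

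Hoxa7 and Hoxa5, middle genes of the cluster, gave no separation of the groups. Hoxa7 ranged from 6.23 to 6.83 in LSK cells and from 6.08 to 7.09 in WT LICs, and was at 6.42 and 6.41 in Ezh2 KO LICs. Its difference between WT LICs and LSK cells was -0.03 with a 95% interval of -0.71 to 0.65, and it turned positive under median centring and quantile normalization. Hoxa5 was at 5.23, 6.34 and 6.63 in LSK cells, at 4.46, 7.04 and 5.76 in WT LICs and at 4.49 and 7.04 in Ezh2 KO LICs, so each group spanned over 1 unit. Its interval, -2.26 to 1.65, allows large changes in either direction.

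**Figure D1:**
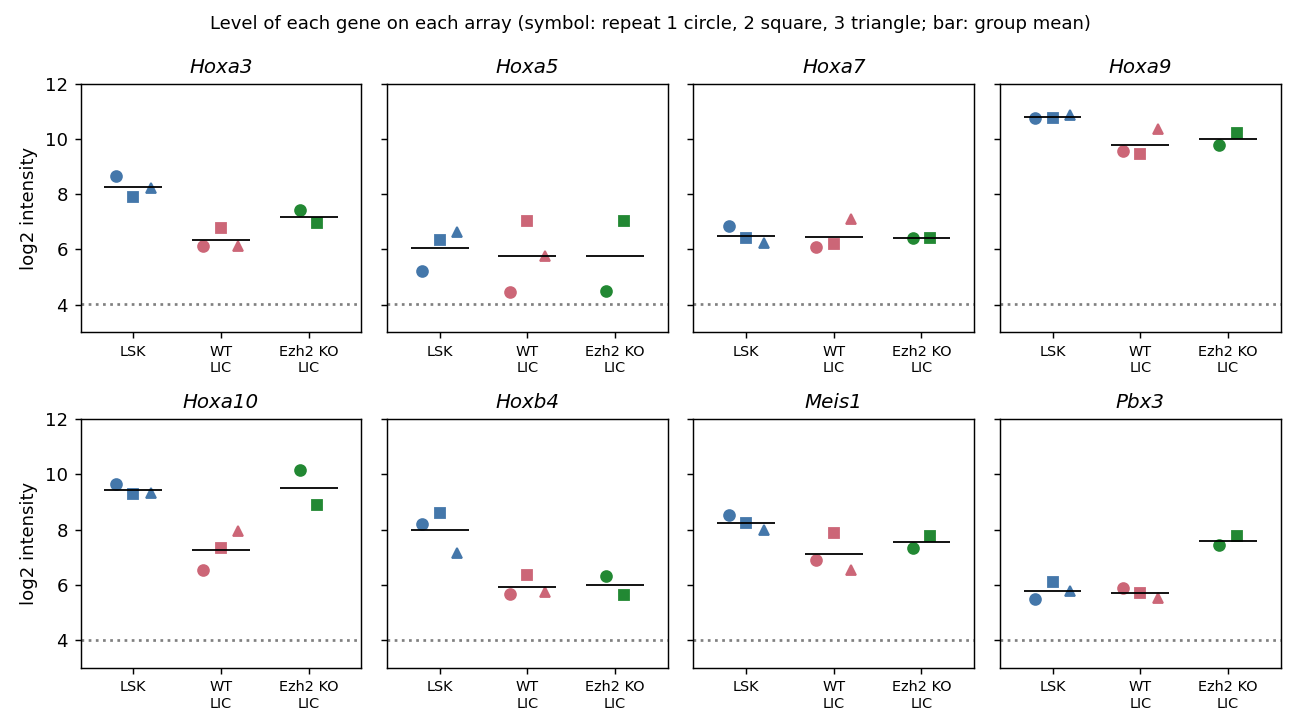
Log2 intensity of each of the 8 genes (vertical axis) on each array, by group. Points are arrays, horizontal bars are group means and the dotted line is background at 4.01. Hoxa10 is low only on the 3 WT LIC arrays, Hoxb4 is low on all 5 LIC arrays, and Pbx3 is high only on the 2 Ezh2 KO arrays.

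Loss of Ezh2 within LICs went with a higher level of Pbx3, which rose 3.65-fold. Hoxa10 was higher on both Ezh2 KO arrays than on any WT LIC array but did not pass the test over all genes. Hoxb4 and Hoxa9 overlapped between the LIC groups, as did Hoxa5, Hoxa7 and Meis1. Of the 8 genes 1 was called higher and none lower, where 0.589% of all genes were called higher. For 3 of the 8, Hoxa3, Hoxa10 and Pbx3, both Ezh2 KO arrays lay above all WT LIC arrays, as they did for 13.2% of all genes.

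Pbx3, a PBX cofactor known to cooperate with HOXA9 in leukaemia, was at 5.48, 6.10 and 5.79 in LSK cells, at 5.90, 5.72 and 5.54 in WT LICs and at 7.43 and 7.76 in Ezh2 KO LICs. LSK cells and WT LICs overlapped, and both Ezh2 KO arrays lay above all of them. It rose by 1.87 within LICs when Ezh2 was lacking (SE 0.23, adjusted p = 0.0193) and by 1.80 against LSK cells (SE 0.23, adjusted p = 0.0108). These comparisons share the Ezh2 KO arrays. Fitted on the LIC arrays alone, the difference between the LIC groups had an adjusted p of 0.0524. Without WT LIC replicate 1 or 2 it was 0.0524 and 0.0674, and without Ezh2 KO replicate 1 or 2 it was 0.0526 and 0.117, while the difference itself stayed between 1.70 and 2.03. Against LSK cells the call was lost without Ezh2 KO replicate 2 (adjusted p = 0.0675).

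Hoxa10 differed by 2.23 between Ezh2 KO and WT LICs (SE 0.47, adjusted p = 0.134), a 4.71-fold difference with a 95% interval of 1.13 to 3.34. Against LSK cells it differed by 0.09, with an interval of -1.02 to 1.20, which does not show that the levels were alike. Both comparisons with WT LICs share the same 3 WT LIC arrays, so the low values there enter the fall from LSK cells and the difference to Ezh2 KO LICs alike. Without Ezh2 KO replicate 1, the brighter of the 2, the difference was 1.60, and without replicate 2 it was 2.87.

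Hoxa3 differed by 0.83 between Ezh2 KO and WT LICs (SE 0.30, adjusted p = 0.375). Hoxb4 differed by 0.07 (95% interval -0.98 to 1.12), Hoxa9 by 0.19 (-0.48 to 0.86) and Meis1 by 0.45 (-0.46 to 1.35). The dimmer Hoxa9 probe set gave -0.34 (SE 0.30), opposite in sign to the brighter one. Hoxa7 and Hoxa5 differed by -0.05 and 0.01.

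**Figure D2:**
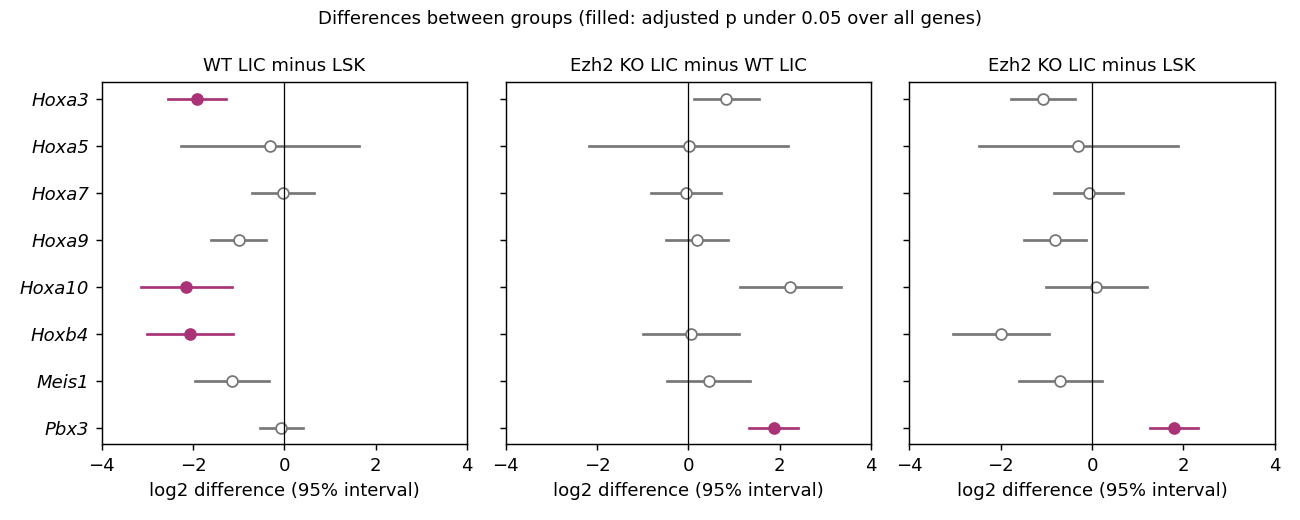
Log2 difference (horizontal axis) with its 95% interval for each gene in the 3 comparisons. Filled points passed the test over all genes: Hoxa3, Hoxa10 and Hoxb4 between WT LICs and LSK cells, and Pbx3 in both comparisons of Ezh2 KO LICs.

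Genes of B cell precursors were also higher in Ezh2 KO LICs. The summed level of 6 measured B lineage markers was 12.11 and 11.51 on the Ezh2 KO arrays, 8.64 to 9.71 in WT LICs and 9.71 to 10.2 in LSK cells. Among these markers, 5 of 6 had a mean above background in Ezh2 KO LICs and in LSK cells and 4 in WT LICs, and Pax5 was under background on all arrays. Their part in the difference of Pbx3 or of Hoxa10 was not tested. In bulk samples, more cells of a type and more RNA per cell cannot be told apart. The summed level of 6 measured stem and progenitor markers (5 of 6 above background in each group, with Mecom at background on all arrays) was 13.10 to 13.23 in LSK cells, 12.18 to 12.70 in WT LICs and 12.52 to 12.78 in Ezh2 KO LICs. Every LIC array lay below every LSK array in this sum. Within it, the means in LSK cells and WT LICs were 10.56 and 8.64 for Flt3, 10.95 and 9.77 for Kit and 8.63 and 6.92 for Procr. Those of Cd34 (12.26 and 11.94) and Slamf1 (8.08 and 7.45) were closer, and their arrays overlapped between these groups. Between LSK cells and WT LICs, megakaryocyte markers (5 of 5 above background in both) summed to 10.2 to 10.9 in LSK cells, to 8.30 to 9.20 in WT LICs and to 8.65 and 8.81 in Ezh2 KO LICs. Monocyte markers (5 of 5 above background in LSK cells, 4 of 5 in WT LICs) summed to 12.0 to 12.1, 10.01 to 11.16 and 10.46 to 10.84. Markers of antibody-secreting cells (5 of 5 above background in both) summed to 11.7 to 12.2, 10.25 to 10.55 and 10.46 to 10.87. These 4 sums, like Hoxa3, Hoxb4, Hoxa9 and Meis1, were lower on every LIC array than on any LSK array. The part of these sums in those differences was not tested. Not every marker within these sums was lower in WT LICs. The monocyte marker Ccr2 was higher there, at 7.14 to 8.99 against 6.69 to 7.02 in LSK cells. Xbp1 (9.85 to 10.11 against 9.26 to 10.05) and Itga2b (means 7.43 and 7.37) overlapped between these groups. Granulocyte markers summed to 13.15 to 13.3 in LSK cells, 13.12 to 13.38 in WT LICs and 12.57 and 13.29 in Ezh2 KO LICs. Of 6 stroma and endothelium markers Pecam1 alone had a mean above background in each group, and Lepr and Kdr were at background on all arrays.

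**Figure D3:**
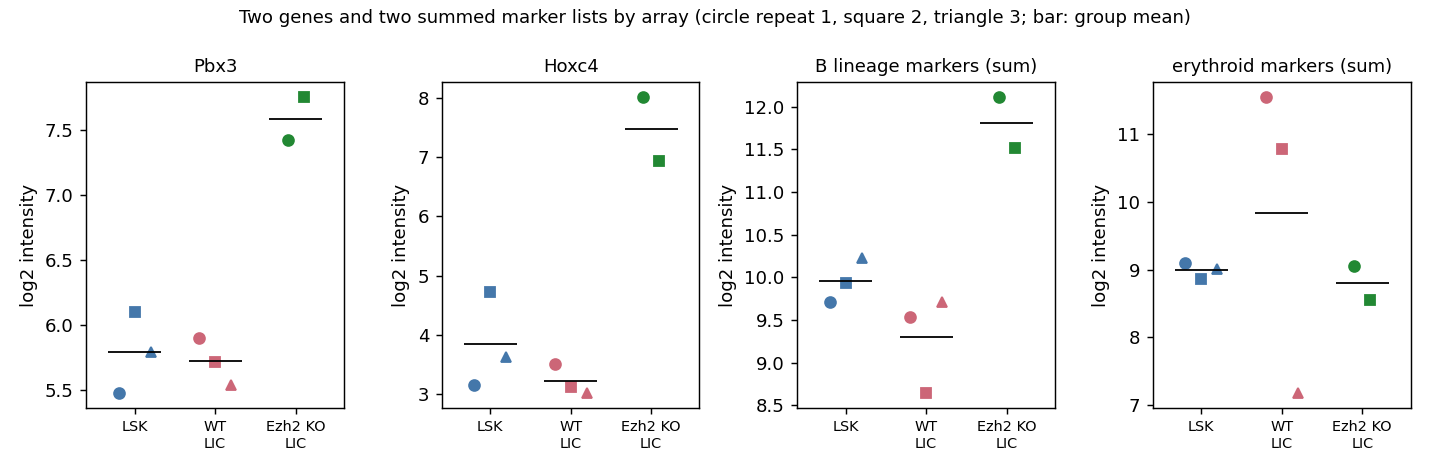
Log2 intensity (vertical axes, which differ between panels) of Pbx3, Hoxc4, the summed B lineage markers and the summed erythroid markers on each array. Pbx3, Hoxc4 and the B lineage sum are highest on both Ezh2 KO arrays. The erythroid sum is 7.18 on WT LIC replicate 3, 11.6 and 10.8 on replicates 1 and 2, and between 8.55 and 9.10 on the other arrays.

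Ezh2 KO LICs against LSK cells gave 1 called member, Pbx3, where 1.61% of all genes were called higher and 3.47% in either direction. For 4 of the 8, Hoxa3, Hoxa9, Hoxb4 and Meis1, both Ezh2 KO arrays lay below all LSK arrays, as they did for 20.5% of all genes. Hoxb4 differed by -2.00 (SE 0.45, adjusted p = 0.0587), Hoxa3 by -1.08 (SE 0.30, adjusted p = 0.104), Hoxa9 by -0.81 (SE 0.29, adjusted p = 0.178) and Meis1 by -0.70 (SE 0.39, adjusted p = 0.382). Hoxb4 was called in 4 of 15 alternatives, such as without LSK replicate 3, its lowest LSK array (-2.41, adjusted p = 0.0352). Another was the mean of its probe sets (-1.41, adjusted p = 0.0256), which includes the probe set at background on most arrays and so adds little. Over the 15 the difference of Hoxb4 ranged from -2.41 to -1.41. Hoxa5 and Hoxa7 differed by -0.30 and -0.08. The order of the group means was LSK cells, Ezh2 KO LICs, WT LICs for Hoxa3, Hoxa9, Hoxb4 and Meis1, with the LIC groups overlapping for all of these but Hoxa3. For Pbx3 Ezh2 KO LICs stood first and the other groups overlapped.

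The start-site sequences are given for the genes that fell between LSK cells and WT LICs and carry the calls of that comparison. Each runs from 250 bases before to 50 after a RefSeq start in build GRCm38.p6, 5' to 3', with CpG dinucleotides in capitals. Hoxa10 has 2 listed starts, which its probe set does not tell apart here.
Hoxa3, chr6:52213018-52213317, strand -: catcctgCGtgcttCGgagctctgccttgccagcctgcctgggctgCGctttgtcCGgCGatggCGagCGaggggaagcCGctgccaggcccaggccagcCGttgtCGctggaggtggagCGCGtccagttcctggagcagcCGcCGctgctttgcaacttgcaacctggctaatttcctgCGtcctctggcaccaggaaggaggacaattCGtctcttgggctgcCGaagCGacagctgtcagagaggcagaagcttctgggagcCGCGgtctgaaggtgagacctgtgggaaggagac
Hoxa10, chr6:52234890-52235189, strand -: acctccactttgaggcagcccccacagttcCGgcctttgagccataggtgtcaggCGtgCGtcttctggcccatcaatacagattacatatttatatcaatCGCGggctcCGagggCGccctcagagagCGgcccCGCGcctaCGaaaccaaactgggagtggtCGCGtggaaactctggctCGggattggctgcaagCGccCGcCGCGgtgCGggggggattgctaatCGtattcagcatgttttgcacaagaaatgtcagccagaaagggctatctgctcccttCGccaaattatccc
Hoxa10, chr6:52240805-52241104, strand -: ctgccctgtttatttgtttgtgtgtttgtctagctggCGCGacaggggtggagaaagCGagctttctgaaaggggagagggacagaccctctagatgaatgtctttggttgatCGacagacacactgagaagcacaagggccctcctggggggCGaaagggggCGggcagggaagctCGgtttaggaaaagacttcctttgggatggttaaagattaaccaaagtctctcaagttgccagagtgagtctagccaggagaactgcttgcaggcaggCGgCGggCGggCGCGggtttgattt
Hoxb4, chr11:96318017-96318316, strand +: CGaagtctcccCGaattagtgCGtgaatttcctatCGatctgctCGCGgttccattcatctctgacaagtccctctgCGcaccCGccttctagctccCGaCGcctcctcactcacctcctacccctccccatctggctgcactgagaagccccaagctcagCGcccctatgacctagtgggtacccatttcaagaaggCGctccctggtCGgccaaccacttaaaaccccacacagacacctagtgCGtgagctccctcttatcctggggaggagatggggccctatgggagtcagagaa

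CpG-rich sequence is the kind at which Polycomb repressive complex 2 gathers in mammals. The Hoxa3 window held 20 CpG, the Hoxa10 windows 21 and 12 and the Hoxb4 window 14, against a median of 7 over 32841 windows of the same length. Windows with at least 14 CpG made up 36.3% of all and those with at least 21 made up 24.8%. Among the other members, the window held 29 CpG for Hoxa5, 15 for Meis1, 9 for Hoxa7 and 4 for Hoxa9, and Pbx3 was not listed. The HOX-PBX motif TGATTNAT, searched on both strands, was in none of the 8 member windows and in 3.22% of all windows. The MEIS motif TGACAG was in 1 of them, that of Hoxa3, and in 19.2% of all. No member window held both motifs, so matches did not overlap, and a lack of match covers only these letters in this window.

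Across the whole clusters, no Hoxa or Hoxb gene outside the members passed the test in the first 2 comparisons. Of 9 measured Hoxa genes 2 fell between LSK cells and WT LICs, Hoxa3 and Hoxa10, and of 9 Hoxb genes 1, Hoxb4, where 3.42% of all genes were called in either direction. The median difference was -0.31 over the Hoxa genes and -0.73 over the Hoxb genes, against 0.02 over all genes. Both group means were at background for 3 of the Hoxa and 4 of the Hoxb genes. Single arrays moved these medians: without LSK replicate 1 that of Hoxa was -0.73, without LSK replicate 2 it was -0.20, and without LSK replicate 3 that of Hoxb was -0.40.

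Next to Hoxb4, 3 neighbours picked once their values were known had low values in WT LICs. Hoxb5 was at 6.73, 5.00 and 5.01 in LSK cells and at 3.80, 3.57 and 3.50 in WT LICs (adjusted p = 0.0601, range 0.0176 to 0.157 over the alternatives). Hoxb3 was at 5.66, 6.38 and 6.09 and at 4.55, 3.89 and 4.41 (adjusted p = 0.0966, range 0.0315 to 0.233). Hoxb2 was at 3.89, 4.88 and 4.30 and at 3.54, 2.95 and 2.88 (adjusted p = 0.0772). For each of these the LSK and WT LIC arrays did not overlap, and Hoxb5 and Hoxb2 lay below background in WT LICs. In Ezh2 KO LICs Hoxb3 was at 3.50 and 5.49, the widest spread of these genes, and Hoxb5 at 3.66 and 3.79. Between the LIC groups limma called none of the 9 Hoxa and none of the 9 Hoxb genes, where 0.637% of all genes were called. At an unadjusted p under 0.05 there were 3 and 0, against 1378 of all 12393 genes. The lowest p values of the Hoxa and Hoxb genes belonged to Hoxa10 and to Hoxb13. Hoxb13 differed by 0.57 (adjusted p = 0.526) with 1 Ezh2 KO array at 4.98 and the other at 3.87. The median differences were 0.19 and 0.21, against -0.05 over all genes.

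Outside these clusters, 1 of 13 measured Hoxc and Hoxd genes was called between the LIC groups, where 0.637% of all genes were called. Hoxc4 was at 8.01 and 6.93 in Ezh2 KO LICs, at 3.52, 3.12 and 3.02 in WT LICs and at 3.16, 4.73 and 3.63 in LSK cells. Its level in Ezh2 KO LICs was higher, by at least 11-fold, than in WT LICs (adjusted p = 0.0163), where all 3 arrays were under background and the bound is taken against 4.01. Both Ezh2 KO arrays also lay above all LSK arrays (adjusted p = 0.0142), and no fold is given there, since 2 of 3 LSK arrays were under background. Its call between the LIC groups was lost without WT LIC replicate 1 or 2 or Ezh2 KO replicate 1 (adjusted p from 0.0524 to 0.0696), and against LSK cells without Ezh2 KO replicate 1 (0.0759). Both groups' means were at background for 10 of the 13 genes in the comparison of the LIC groups. None of the 13 was called between WT LICs and LSK cells, where 3.42% of all genes were called. At an unadjusted p under 0.05 there were 0, against 2545 of all 12393 genes. Hoxd10, which lay at background on all arrays, had the smallest p of the 13 in that comparison.

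**Figure D4:**
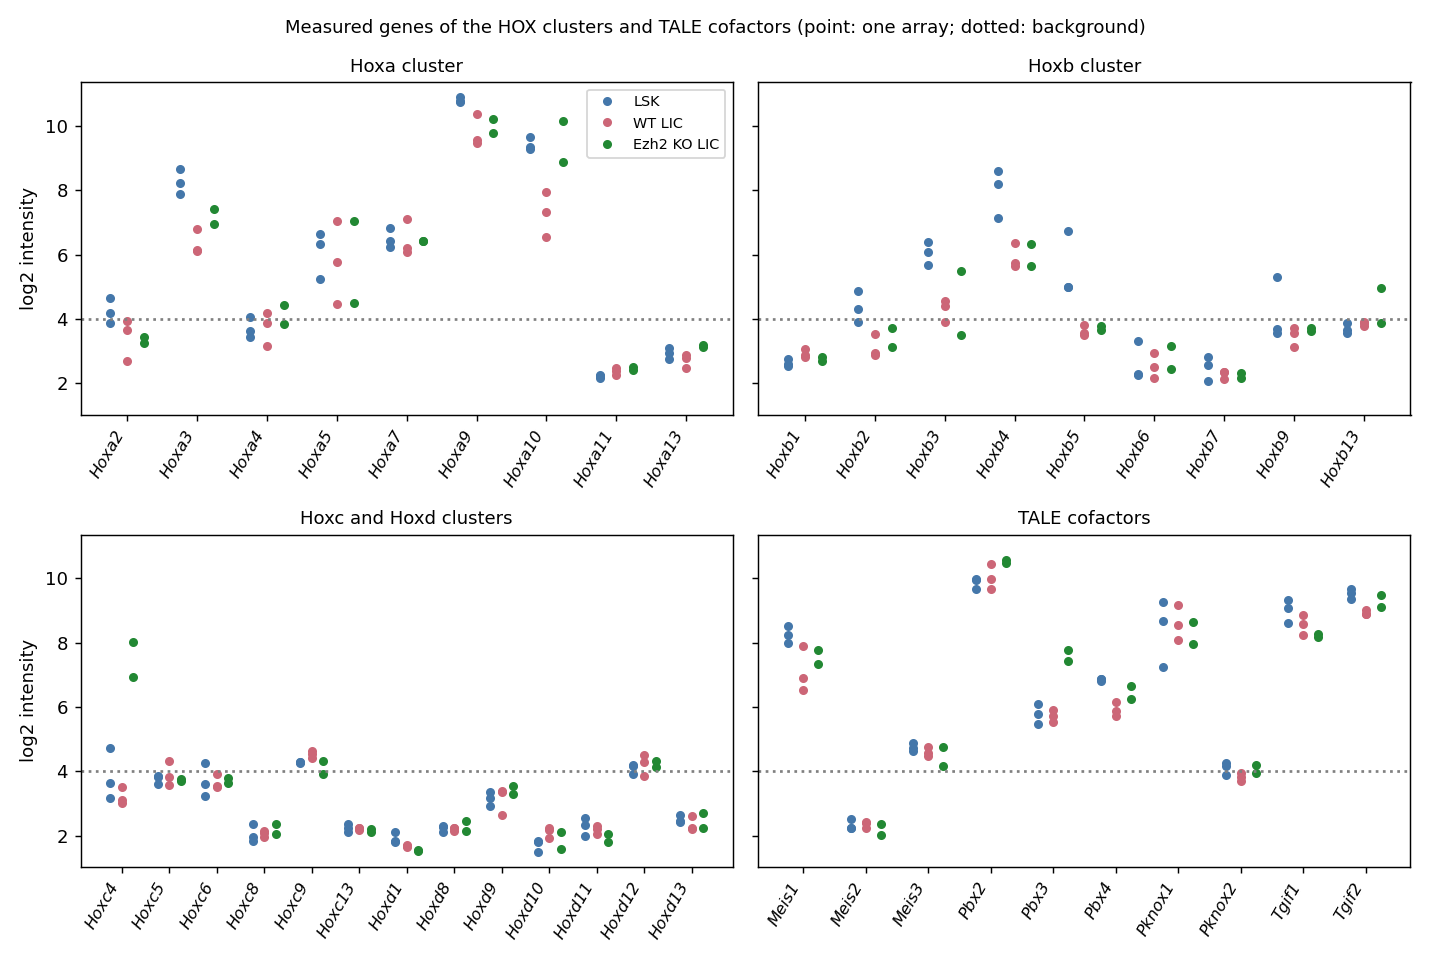
Log2 intensity (vertical axis) of each measured gene of the HOX clusters and of the TALE cofactors, with a point for each array and the background as a dotted line. Most Hoxc and Hoxd genes lie at or near background in every group, and Hoxc4 is above it on both Ezh2 KO arrays.

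Among TALE cofactors, of 10 measured, 1 fell between LSK cells and WT LICs, where 2.15% of all genes were called lower. Pbx4, a PBX family member, was at 6.80, 6.87 and 6.87 in LSK cells and at 6.15, 5.73 and 5.86 in WT LICs. The fall was 0.93 on the log2 scale, or -0.93 (SE 0.17, adjusted p = 0.0328), and the call was lost without any 1 LSK or WT LIC array, with the trended robust prior (adjusted p = 0.0854) and with the mean of its probe sets (adjusted p = 0.189). Between the LIC groups 1 of 10 was called, Pbx3, where 0.637% of all genes were called. The median difference was -0.22 in the first of these comparisons and 0.30 in the second, against 0.02 and -0.05 over all genes. Pbx2, of the same family and picked once its values were known, stood at 10.57 and 10.48 in Ezh2 KO LICs and between 9.66 and 10.45 on the other arrays.

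Activators that maintain HOX transcription gave no call. Of 19 measured, none passed limma's test between WT LICs and LSK cells (3 at an unadjusted p under 0.05) or between the LIC groups (1 at an unadjusted p under 0.05), with medians of -0.08 and -0.01. Over all 12393 genes, 3.42% and 0.637% were called and 2545 and 1378 had an unadjusted p under 0.05. The medians of all genes were 0.02 and -0.05. In the first comparison the number called rose to 1 in 3 of 15 alternatives, not always for the same gene. Mllt3, a subunit of the complexes that carry DOT1L and known for maintaining human blood stem cells, had the smallest p of the first comparison. It was at 8.58, 8.38 and 8.40 in LSK cells, at 7.47, 7.45 and 6.15 in WT LICs and at 7.66 and 8.09 in Ezh2 KO LICs. Its difference was -1.43 (SE 0.35, adjusted p = 0.075), and without WT LIC replicate 3, its lowest array, it was -0.99 (adjusted p = 0.0311). Mllt3 was called in 1 of 15 alternatives, and over these its difference ranged from -1.65 to -0.99. Kmt2a, picked once its values were known, differed by -0.86 between WT LICs and LSK cells (SE 0.22, adjusted p = 0.08), without overlap of the arrays. Between Ezh2 KO LICs and LSK cells Kmt2a differed by -1.04 (adjusted p = 0.0675). Men1, which tethers MLL to HOX genes, had the smallest p between the LIC groups, with a difference of -0.54 (adjusted p = 0.418).

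Among 18 measured genes reported as targets of HOXA9, HOXA10 or MEIS1, 1 fell between LSK cells and WT LICs, where 2.15% of all genes were called lower. At an unadjusted p under 0.05 there were 8 of 18, against 2545 of all 12393 genes. The number called was higher in 9 of 15 alternatives, up to 5 with dim genes filtered or probe sets averaged and 4 with the trended robust prior, and it was 3 without WT LIC replicate 3 and 2 without LSK replicate 2 or WT LIC replicate 1. Pf4, a platelet chemokine gene that MEIS1 with PBX activates, was at 10.34, 10.29 and 9.42 in LSK cells and at 7.47, 7.18 and 6.14 in WT LICs, a fall of 3.09 on the log2 scale (-3.09, SE 0.41, adjusted p = 0.0118) that kept its call under each of 15 alternatives. In Ezh2 KO LICs it was at 7.54 and 6.90 (-2.80 against LSK cells, adjusted p = 0.0252), a call lost without LSK replicate 1 or 2 or either Ezh2 KO array (adjusted p up to 0.131). It is also a megakaryocyte marker and belongs to the list summed above. None of the 18 was called between the LIC groups, where 0.637% of all genes were called. At an unadjusted p under 0.05 there were 3, against 1378 of all 12393 genes. Pim1, a survival kinase gene, had the smallest p of the 18 (difference 0.48, adjusted p = 0.397). The list medians were -0.26 and 0.15, against 0.02 and -0.05 over all genes.

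The patterns closest to each member were found by the root mean square difference between mean-centred log2 values over the 8 arrays, among genes above the median level. This is a description, since the arrays share their groups. Rassf2 and Lyz1 were nearest to Hoxa9 (0.112 and 0.131), Sorbs3 and Gp9 to Meis1 (0.218 and 0.222), and Nav2 and Lst1 to Hoxa3 (0.262 and 0.315). Bmi1 and Lamc1 were nearest to Pbx3 (0.355 and 0.365). Bmi1, a subunit of Polycomb repressive complex 1, was at 11.52 and 11.70 in Ezh2 KO LICs and between 10.14 and 10.59 on the other arrays. Gkap1 and Trp53inp1 were nearest to Hoxa10 (0.44 and 0.493), both low in WT LICs alone. Cd1d1 and Crebrf were nearest to Hoxb4 (0.471 and 0.474), Ikbip and Trappc13 to Hoxa7 (0.124 and 0.125) and Apc and Srxn1 to Hoxa5 (0.637 and 0.644).
Among the members themselves, Hoxa3 and Meis1 were the closest pair (0.459) and Hoxb4 and Pbx3 the farthest apart (1.57). Many other genes were nearer: among all genes Meis1 ranked 52 in closeness to Hoxa3, and Hoxa3 ranked 329 in closeness to Meis1. The measure also depends on how much a gene varies, and member SDs over the arrays ran from 0.339 (Hoxa7) to 1.24 (Hoxa10). Hoxa9 and Hoxa10, neighbours in the cluster, differed by 0.946.

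**Figure D5:**
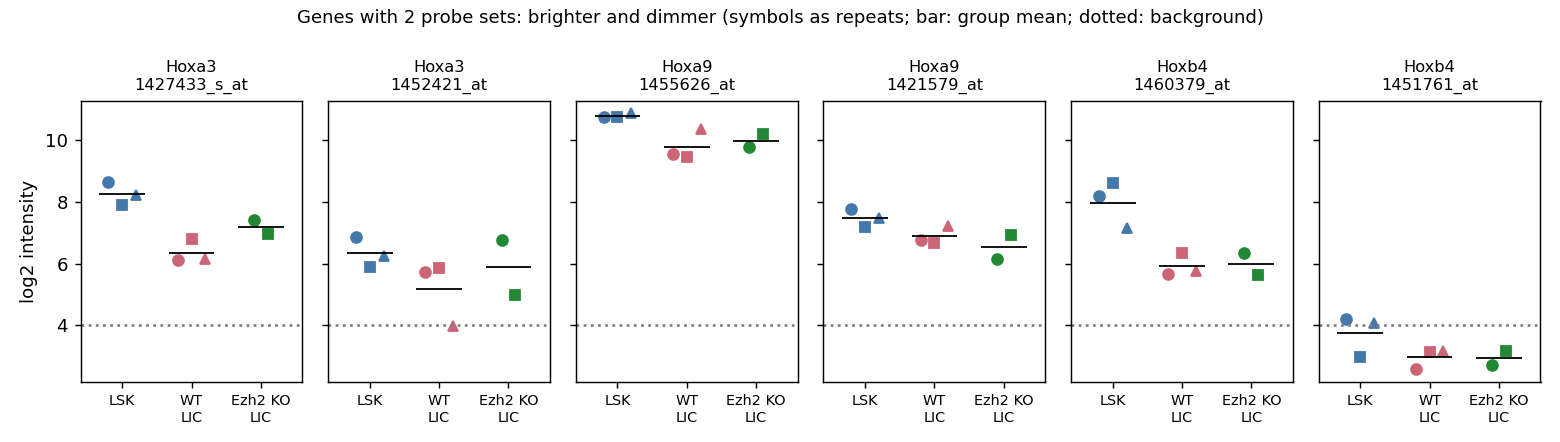
Log2 intensity (vertical axis) of both probe sets of Hoxa3, Hoxa9 and Hoxb4 on each array, with group means as bars and background as a dotted line. The dimmer Hoxb4 probe set lies between 2.57 and 4.18, and the dimmer Hoxa9 probe set places Ezh2 KO LICs below WT LICs, the reverse of the brighter one.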

How the data were processed

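The deposited series table gave linear intensity values for 22690 probe sets on 8 arrays, between 1.94 and 19343.1. RMA is named in the submitters' processing notes, with no version, and other steps were not stated there. Values were turned into log2 with no pseudocount, where log2 values had been assumed in the design. Control probe sets (64), those with several symbols (691) and those not listed (1555) were left out, and symbols were updated by gene number through RefSeq (20351 of 20380 matched). Each gene was represented by its brightest probe set by mean level. One model of all 3 groups was fitted with limma 3.58.1 (lmFit, eBayes) under R 4.3.3, with group as the only term and 5 residual degrees of freedom, 2-sided, with Benjamini-Hochberg adjustment over 12393 genes. An exact permutation test was not used, since these groups are too small for one. On simulated arrays, 86.6% of genes given a log2 change of 2 were recovered for WT LICs against LSK cells, and 77.6% between the LIC groups. It was 61.2% for Ezh2 KO LICs against LSK cells. For a change of 1 these were 52.2%, 44.8% and 37.3%. The changed genes were drawn at random, so these shares are not those of the members. Residual SDs of the members exceeded those of 47.6% (Pbx3) to 98.3% (Hoxa5) of genes. Named were the members, Ezh2, the called genes of 6 lists (at most 4 by smallest p, else the gene of smallest p), and the 2 genes nearest to each member. The members and lists were chosen with earlier results of these data known. As alternatives, dim genes were filtered, arrays were median-centred or quantile-normalized, the prior was trended and robust, the 2 groups in question were fitted alone, a replicate block was added, probe sets were averaged, and arrays were left out in turn. Plots were drawn with matplotlib 3.10.9.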

Additional observations from a re-analysis of the deposited data

How the results depend on the processing

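The number of called members changed with the settings. Between WT LICs and LSK cells it was 3, and 4 with the trended robust prior, which added Hoxa9. It was 2 with only the 2 groups compared or with the mean of all probe sets, 1 with the replicate block and from 0 to 3 with 1 array left out. Between the LIC groups it was 1, 0 with only the 2 groups compared, 0 with the replicate block and from 0 to 1 with 1 array left out. Between Ezh2 KO LICs and LSK cells it was 1, 2 with dim genes filtered, with the trended robust prior or with the mean of all probe sets, and from 0 to 2 with 1 array left out. Over all genes, 424, 79 and 430 were called. With the replicate block these were 252, 36 and 147, between the LIC groups 32 with dim genes filtered and 35 with only the 2 groups compared, and with 1 array left out 176 to 643, 25 to 146 and 118 to 643. The 2 counts of 643 and that of 146 came without WT LIC replicate 3, and those of 176, 25 and 118 without WT LIC replicate 1 (the first 2) and Ezh2 KO replicate 2. Same-numbered arrays deviated together with correlations of -0.0513 to 0.145, so the numbers were not taken to pair them. With the replicate block the adjusted p of Hoxc4 was 0.0861 between the LIC groups and 0.0621 against LSK cells, and that of Pbx4 between WT LICs and LSK cells was 0.0652. It was 0.0824 for Hoxa10 and 0.0564 for Hoxb4 in that comparison, and 0.0737 for Pbx3 between the LIC groups. Median centring moved the median difference of all genes from 0.02 to 0.13 between WT LICs and LSK cells and the higher calls from 37.0% to 54.2% of all calls. Between Ezh2 KO LICs and LSK cells the higher calls went from 46.5% to 59.8%.

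Signs turned only for differences that were not called. Between WT LICs and LSK cells Hoxa7 was 0.080 and 0.067 and Pbx3 0.039 and 0.047 with median centring and quantile normalization. With 1 array left out they ranged from -0.34 to 0.16 and from -0.23 to 0.085, and Hoxa5 from -0.95 to 0.34. Between the LIC groups Hoxa5 was -0.011 and -0.068 with those 2 scalings, Hoxa9 -0.078 with the mean of probe sets, and Hoxa7 and Hoxb4 0.042 and -0.19 with the replicate block. With 1 array left out they ranged from -1.27 to 1.29, -0.024 to 0.47, -0.24 to 0.27 and -0.28 to 0.41. Between Ezh2 KO LICs and LSK cells Hoxa7 was 0.011 and 0.0046 with the scalings and 0.014 with the replicate block, and ranged from -0.21 to 0.092 with 1 array left out. Hoxa5 ranged from -1.58 to 0.98 and Hoxa10 from -0.55 to 0.73. The cause was not tested. All 8 members passed the filter on dim genes, and no Hoxc or Hoxd gene did, so Hoxc4 has no value there.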

Other observations

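Hoxa5 varied more between the arrays of a group than between groups. Its residual SD of 1.24 exceeded that of 98.3% of genes tested. In each group the array numbered 1 was the lowest, at 5.23, 4.46 and 4.49, and the array numbered 2 stood at 6.34, 7.04 and 7.04. The labels do not say that the numbers mark a shared day or animal.

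Trib2, a reported HOXA9 and MEIS1 target picked once its values were known, spread widely among WT LICs. It was at 8.69, 6.26 and 4.39 there, at 9.62, 8.98 and 9.27 in LSK cells and at 7.64 and 7.12 in Ezh2 KO LICs.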
